A study of Mus musculus with 20 samples.

Results

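Expression of 40 genes of DNA replication and the cell cycle was examined in whole hearts of control and iron-deficient anemic (IDA) mice. The genes were chosen by name for their function: 11 that license origins or form the replicative helicase, 13 that act at the replication fork, 7 that control the G1 and S phases, and 9 of mitosis. All 40 were among the 23420 genes of the count table. Of these, 38 passed a filter of at least 1 CPM (read pairs scaled to the size of the library) in at least 10 mice, as did 13590 genes in all. Ccnb1 and Bub1, which act in mitosis, did not.

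Before a cell copies its DNA, the loader proteins CDC6 and CDT1 place the MCM2 to MCM7 hexamer on origins, and CDC45 with the GINS complex turns it into an active helicase. Behind the helicase, DNA polymerase alpha with its primase starts each strand, replication protein A coats single strands, the RFC clamp loader places the PCNA ring, and FEN1 and LIG1 process and join the fragments. Cyclins with their kinases drive these steps and the inhibitors p21 and p27 restrain them. Most cardiomyocytes of the mouse leave the cell cycle soon after birth, and dividing cells of the adult heart are mainly non-myocytes.

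The RNA came from the hearts of male wild-type C57BL/6 mice (C57BL/6J in the methods of the study) aged 9 weeks, weaned at 3 weeks of age onto their diet for 6 weeks. The 10 control mice received an iron-adjusted diet, and the 10 IDA mice received an iron-deficient diet whose iron is given as below 2 ppm in one label and above 2 ppm in another. No mouse carried an engineered allele. Each mouse gave 1 library, so p-values measure the spread between mice.

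Total counts lay between 6797180 and 8960688 in control hearts and between 6682177 and 7833916 in IDA hearts. All 7 cardiomyocyte markers were detected, with summed levels of 4212 to 5070 CPM in control and 3666 to 5193 CPM in IDA hearts. Erythroid markers were higher in IDA hearts: the 11 of 12 markers in the table summed to 205 to 297 CPM in control and to 291 to 909 CPM in IDA hearts, with the defining globin genes Hba-a1 and Hba-a2 at 0, and 5 of the 6 markers tested rose while 1 fell. Leukocyte markers summed to 378 to 435 CPM and 378 to 531 CPM, endothelial markers to 1509 to 1674 CPM and 1337 to 1625 CPM, fibroblast markers to 1096 to 1322 CPM and 1087 to 1320 CPM, and smooth muscle and pericyte markers to 999 to 1195 CPM and 898 to 1142 CPM, in control and IDA hearts. Fold changes of all tested genes fell with exonic length, from a median log2 fold change of 0.32 in the 2268 genes under 1500 bp to -0.44 in the 2506 genes of 5000 bp or more. The main results are therefore given also after a correction that removed from each mouse its trend on gene length, whatever the origin of that trend.

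Without a length correction, most genes of licensing and the helicase and most genes of the replication fork were called higher in IDA hearts, with 3 of these genes lower, while most mitotic genes did not pass the test. The median log2 fold change was nevertheless 0.43 for the mitotic genes tested, 0.24 for licensing and helicase, 0.23 for the fork and 0.07 for G1 and S phase control. Standard errors were 0.14 to 0.25 for mitotic genes and 0.04 to 0.12 for fork genes, so the calls do not compare sizes of change. After the length correction these medians were 0.37, 0.31, 0.09 and 0.15. With length corrected, as many fork genes were called lower as higher (23.1% each, against 23.5% lower and 31.5% higher over all genes). Of the 38 members tested, 17 were higher and 5 lower in IDA hearts at an adjusted p below 0.05 (edgeR quasi-likelihood test, Benjamini-Hochberg adjustment over all tested genes). Over all genes tested the same call was made for 35.0% as higher and 32.5% as lower. Among the members these shares were 44.7% and 13.2%, and the median log2 fold change was 0.21 against 0.02 over all genes. After the length correction 11 members were higher and 6 lower, with 31.5% and 23.5% of all genes called, so that the share of members called higher, 28.9%, was below that of all genes. The median of the members was then 0.19, against 0.04 over all genes. With GC content corrected as well, 10 were higher and 2 lower, or 26.3% and 5.26%, against 27.3% and 20.2% of all genes. With the mean of the erythroid markers as a covariate 8 members were higher and 4 lower. The shares over all genes were not counted for that fit. Moreover, these marker means did not overlap between the diets, at 3.71 to 4.47 in control and 4.72 to 6.77 in IDA hearts (mean log2 CPM). Their part in the members' changes was not tested. In whole hearts, fewer cells of a type and less RNA per cell cannot be told apart.

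By role, 7 of 11 licensing and helicase genes rose and 1 fell (63.6% and 9.09%). At the fork 8 of 13 genes rose and 2 fell (61.5% and 15.4%). Among the 7 genes of G1 and S phase control 1 rose and 2 fell (14.3% and 28.6%), and of the 7 mitotic genes tested 1 rose (14.3%). Over all genes these shares were 35.0% and 32.5%. After the length correction the counts by role were 5 higher and 1 lower, 3 and 3, 1 and 2, and 2 and 0. As shares these were 45.5% and 9.09%, 23.1% and 23.1%, 14.3% and 28.6%, and 28.6% and 0%. Over all genes 31.5% and 23.5% were then called. There were 8 members higher in both fits (Mcm2, Mcm3, Mcm5, Mcm6, Cdt1, Rfc2, Rpa1 and Lig1) and 3 lower in both (Mcm4, Pola1 and Cdk2). The share of all tested genes called alike in both fits was not counted. With GC content corrected too, Mcm3, Mcm5, Mcm6, Rfc2, Rpa1 and Lig1 remained higher, and Mcm4 and Cdk2 remained lower. In no member did the 10 IDA hearts lie wholly outside the range of the 10 control hearts. The share of all tested genes without overlap was not counted, so this is a description only.

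**Figure D1:**
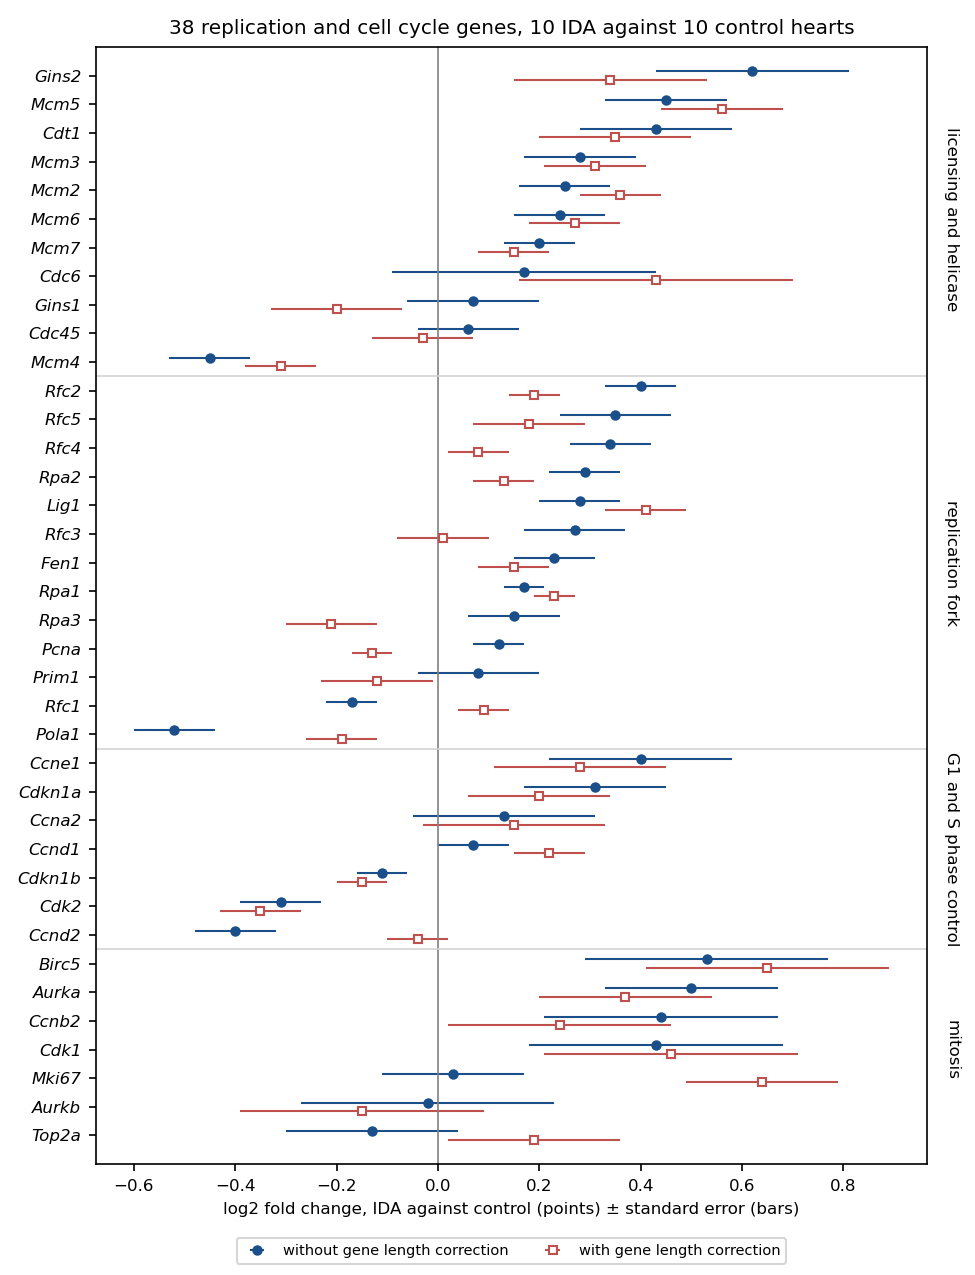
Log2 fold change of the 38 members tested, IDA against control, without (filled circles) and with (open squares) the gene length correction, grouped by role, with bars for ± 1 standard error. Mcm4 (-0.45 and -0.31) lies apart from the other MCM genes, and Mki67 moves from 0.03 to 0.64 with the correction.

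The lead difference lay within the MCM helicase, a ring of 6 different subunits. Mcm4 fell while Mcm2, Mcm3, Mcm5, Mcm6 and Mcm7 rose. Mcm4 (chr16:15623897-15637400, - strand, mm10, 16 merged exons) had 22.1, 28.5 and 33.9 CPM (lowest, median and highest) in control hearts and 17.3, 19.8 and 25.6 CPM in IDA hearts. All 10 IDA hearts were below the control mean and 6 were below the lowest control heart. The log2 fold change of Mcm4 was -0.45 ± 0.08 (SE; adjusted p = 2.73e-05, edgeR), and -0.31 ± 0.07 (adjusted p = 0.000798) after the length correction.

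Mcm5 (chr8:75109528-75128439, + strand, 17 merged exons) ranged from 8.37 through a median of 10.7 to 13.9 CPM in control hearts and from 11.1 through 13.7 to 21.1 CPM in IDA hearts. Every IDA heart was above the control mean, and 5 were above the highest control heart. Its log2 fold change was 0.45 ± 0.12 (adjusted p = 0.00228), and 0.56 ± 0.12 (adjusted p = 0.000544) with the length correction. Mcm2 had 20.6, 22 and 27 CPM in control hearts and 21.3, 25.9 and 38 CPM in IDA hearts, with 4 IDA hearts above all controls and a log2 fold change of 0.25 ± 0.09 (adjusted p = 0.014). Mcm3 had 15.6, 17.8 and 22.4 CPM against 16.2, 20.4 and 29.2 CPM, with a log2 fold change of 0.28 ± 0.11 (adjusted p = 0.0217). As for Mcm2, the IDA hearts overlapped the controls at their lower end, and 4 lay above every control. Mcm6 had 21.7, 28.4 and 38.3 CPM against 26, 32.8 and 45 CPM, with a log2 fold change of 0.24 ± 0.09 (adjusted p = 0.03). The highest values of Mcm2, Mcm3, Mcm5 and Mcm6 all came from IDA mouse 4. For Mcm7 the log2 fold change was 0.20 ± 0.07 (adjusted p = 0.0176), and 0.15 ± 0.07 (adjusted p = 0.0682) once length was corrected. The 5 subunits had positive log2 fold changes in every correction tried, of 0.15 to 0.56 with length corrected and 0.16 to 0.52 with length and GC content corrected.

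Mcm4 and Mcm5 are near each other in exonic length, at 3589 and 3422 bp, and moved in opposite directions. Mcm4 had a GC content of 45.5%, the lowest of the 6, next to 47.1% in Mcm6, which rose. With length and GC content corrected, the log2 value for Mcm4 was -0.18 ± 0.07 (adjusted p = 0.039) and that for Mcm6 was 0.37 ± 0.10 (adjusted p = 0.00349). With the erythroid marker mean as a covariate the values were -0.64 ± 0.12 (adjusted p = 0.00025) for Mcm4, 0.64 ± 0.19 (adjusted p = 0.0084) for Mcm5 and 0.37 ± 0.14 (adjusted p = 0.0334) for Mcm2, while Mcm3, Mcm6 and Mcm7 did not pass (adjusted p = 0.259, 0.0926 and 0.116). Mcm4 and Mcm5 were called in all 100 fits that left out 1 mouse of each group. Mcm6 was called in 50 of them, Mcm3 in 69, Mcm7 in 82 and Mcm2 in 96.

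**Figure D2:**
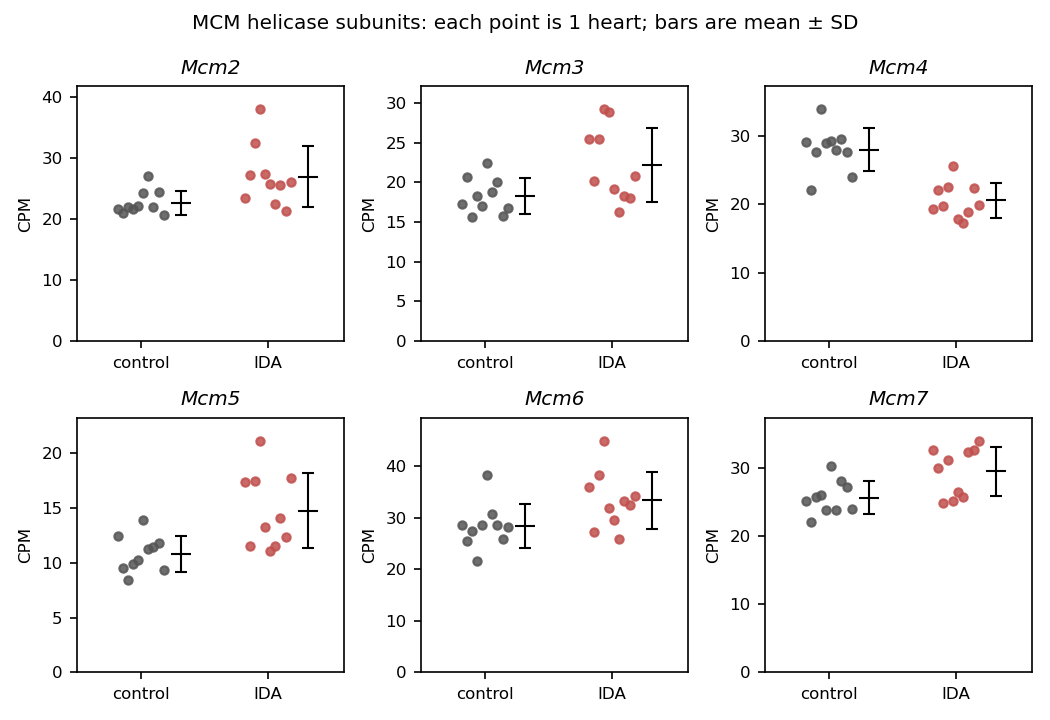
Level in CPM of the 6 MCM subunits in each heart (points, 10 control and 10 IDA), with the mean ± SD of each group beside them. Mcm4 is lower in IDA hearts, with a median of 19.8 against 28.5 CPM, whereas the IDA points of the other 5 subunits reach above the control points.

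Per kilobase of exon, the subunits ranked in control hearts as Mcm7 (10.7 ± 1.01 CPM per kb, SD, n = 10), Mcm6 (9.78 ± 1.46), Mcm4 (7.8 ± 0.893), Mcm2 (6.72 ± 0.586), Mcm3 (6.33 ± 0.777) and Mcm5 (3.15 ± 0.482). In IDA hearts the order was Mcm7 (12.3 ± 1.5 CPM per kb), Mcm6 (11.5 ± 1.92), Mcm2 (8 ± 1.47), Mcm3 (7.67 ± 1.63), Mcm4 (5.72 ± 0.71) and Mcm5 (4.3 ± 0.999). Neighbours in either order overlapped in their ranges over mice, except that Mcm5 stayed below the ranges of all the others in control hearts. Mcm4 thus moved from rank 3 in control to rank 5 in IDA hearts. The log2 level of Mcm4 per kilobase minus the mean of the log2 levels of the other 5 subunits, a measure chosen after the values were seen and given without a test, was -0.04 to 0.60 (median 0.21) in control hearts and -0.78 to -0.19 (median -0.55) in IDA hearts. On this measure, made without the length and GC content corrections, all 10 IDA hearts were below the lowest control heart.

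Promoter windows of RefSeq (build GRCm38.p6, from 250 bases before to 50 after the gene's start) were on hand for 32 of the 40 members; Mcm4, Gins1, Gins2, Ccna2, Ccnd1, Ccnd2, Rfc2 and Aurkb had none. The letters TTTCCCGC, TTTGGCGC, TTTCGCGC or TTTGCCGC, forms of the site bound by E2F factors, were searched on both strands. They occurred in the windows of 11 members, or 34.4%, and of 2.6% of all 27025 genes with a window. The 11 were Mcm3, Mcm5, Mcm6, Mcm7, Cdc6, Cdt1, Rfc3, Lig1, Pola1, Cdk1 and Cdk2. In the fit without a length correction 7 of these rose, Pola1 and Cdk2 fell and Cdc6 and Cdk1 did not pass the test. Genes called in either direction in that fit thus held these letters. With length corrected Mcm7 and Rfc3 were not called. With GC content corrected too, Cdt1 and Pola1 also lost their calls, while Cdk2 stayed lower. The sequences below are shown because they place forms of this site near the starts of 4 MCM genes that rose and of 2 members that fell in that uncorrected fit. They are written 5′ to 3′ on the gene's strand, with the match in capitals. A match that reads GCGGGAAA or GCGCCAAA lies on the opposite strand.
Mcm3, chr1:20820275-20820304, - strand: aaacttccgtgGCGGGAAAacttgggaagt
Mcm5, chr8:75109345-75109374, + strand: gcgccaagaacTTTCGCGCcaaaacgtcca
Mcm6, chr1:128359797-128359826, - strand: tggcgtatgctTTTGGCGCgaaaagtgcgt
Mcm7, chr5:138172030-138172059, - strand: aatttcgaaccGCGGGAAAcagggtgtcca
Pola1, chrX:93632275-93632304, - strand: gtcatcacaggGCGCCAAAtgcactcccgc
Cdk2, chr10:128705173-128705202, - strand: aaccaggaactGCGGGAAAgttgtgcagct
Counted from the RefSeq start, which is not always the first base of the locus given by the count table, the first base of the match lies at position -153 in Mcm5, -110 in Mcm6, -165 in Mcm7, -138 in Pola1 and -140 in Cdk2, and at base 20 after the start in Mcm3. In Mcm5 and Mcm6 a further match overlaps the one shown. The letters CCAAT, on either strand, occurred in 23 of the 32 members (71.9%) and in 41.1% of all genes. The letters TTTGAA, found in the CHR element of many mitotic genes, occurred in 8 members (25%) and in 20.2% of all genes, a share near the background. These are matches of letters and not measured binding.

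The other helicase and loading genes were expressed at lower levels. Cdt1, an origin loader, had 2.49, 4.47 and 6.07 CPM in control hearts and 4.09, 6.35 and 8.23 CPM in IDA hearts, with 6 IDA hearts above all controls. Its rise was 0.43 ± 0.15 on the log2 scale (adjusted p = 0.0149), and 0.35 ± 0.15 (adjusted p = 0.049) with the length correction. Without IDA mouse 4, the corrected call for Cdt1 was lost in each of the 10 fits (log2 fold change 0.22 to 0.34). Gins2, a GINS subunit whose exons overlap those of Gse1 by 118 bp, rose by 0.62 ± 0.19 (adjusted p = 0.00609), from a median of 10 to one of 14 read pairs, and by 0.34 ± 0.19 (adjusted p = 0.14) with the length correction. Gins1 had 3.41, 4.56 and 6.35 CPM in control and 3.42, 5.22 and 7.08 CPM in IDA hearts, with nearly the same range in both groups. Without and with the correction the value was 0.07 ± 0.13 (adjusted p = 0.657) and -0.20 ± 0.13 (adjusted p = 0.191). Cdc45 had 5.6, 8.66 and 9.69 CPM against 7.16, 8.49 and 10.7 CPM, and its log2 fold change was 0.06 ± 0.10 and -0.03 ± 0.10. Neither gene passed the test in either fit, and the same held for Cdc6 (0.17 ± 0.26 and 0.43 ± 0.27), the other loader, with medians of 13 and 13.5 read pairs.

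At the fork, Rpa1, Rfc2 and Lig1 rose with and without the length correction, and Pola1, the catalytic subunit of polymerase alpha, fell in both of these fits. The calls of Rpa2, Rfc3, Rfc4, Rfc5 and Fen1, higher without the correction, were not made with it. Rpa1, the large subunit of replication protein A, had 137, 147 and 160 CPM in control hearts and 156, 166 and 184 CPM in IDA hearts. Each IDA heart was above the control mean and 7 were above all controls. The log2 fold change of Rpa1 was 0.17 ± 0.04 (adjusted p = 0.000404), and 0.23 ± 0.04 (adjusted p = 8.65e-05) with the length correction. Rpa2 rose by 0.29 ± 0.07 (adjusted p = 0.00103), with 0.13 ± 0.06 (adjusted p = 0.067) after correction. Rpa3, the smallest subunit and at 638 bp the shortest member, had 9.69, 10.4 and 13.9 CPM in control and 8.22, 12.2 and 15.1 CPM in IDA hearts. The IDA range of Rpa3 enclosed that of the controls. Its log2 fold change turned from 0.15 ± 0.09 (adjusted p = 0.154) to -0.21 ± 0.09 (adjusted p = 0.0455) with the correction, a call lost without control mouse 1 or without IDA mouse 4 (-0.20 to -0.13 and -0.20 to -0.15).

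The RFC clamp loader has 5 subunits, and they did not move alike. Rfc2 had 34.6, 38.7 and 48.2 CPM in control hearts and 42.7, 52.4 and 59.9 CPM in IDA hearts, with 8 IDA hearts above all controls. The rise of Rfc2 was 0.40 ± 0.07 on the log2 scale (adjusted p = 2e-05), and 0.19 ± 0.05 (adjusted p = 0.00394) with the length correction. Rfc3, Rfc4 and Rfc5, the other small subunits, rose by 0.27 ± 0.10, 0.34 ± 0.08 and 0.35 ± 0.11. None of these 3 passed after the length correction, with 0.01 ± 0.09, 0.08 ± 0.06 and 0.18 ± 0.11. Exons of Rfc4 overlap those of Eif4a2, an abundantly expressed translation factor, by 160 bp, so its counts are uncertain. Rfc1, the large subunit with 4720 bp of exon, had 112, 123 and 134 CPM in control hearts and 94.9, 109 and 120 CPM in IDA hearts. All 10 IDA hearts were below the control mean. Rfc1 fell by 0.17 ± 0.05 on the log2 scale (adjusted p = 0.00244), whereas the value was 0.09 ± 0.05 (adjusted p = 0.134) with length corrected and 0.21 ± 0.06 (adjusted p = 0.00357) with length and GC content corrected. Its direction therefore depended on the correction.

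Pola1, the catalytic subunit of DNA polymerase alpha (chrX:93304766-93632155, - strand, 37 merged exons), had 12.4, 16.7 and 20 CPM in control hearts and 10.1, 11.3 and 12.9 CPM in IDA hearts. Among the IDA hearts, 7 lay below the lowest control. The log2 fold change of Pola1 was -0.52 ± 0.08 (adjusted p = 7.24e-06), -0.19 ± 0.07 (adjusted p = 0.0394) with length corrected and 0.02 ± 0.07 (adjusted p = 0.813) with length and GC content corrected. The corrected call held in 38 of the 100 fits that left out a pair of mice. Its partner in priming, Prim1, had 3.01, 3.85 and 5.2 CPM in control and 2.95, 4.11 and 5.74 CPM in IDA hearts, and the groups overlapped over almost their whole range. Prim1 did not pass the test, with 0.08 ± 0.12 (adjusted p = 0.55) and, after correction, -0.12 ± 0.11 (adjusted p = 0.424).

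Pcna, the sliding clamp, had 33.2, 37 and 42.5 CPM in control hearts and 36.5, 40 and 45.4 CPM in IDA hearts. In 9 of 10 IDA hearts Pcna was above the control mean, and 2 were above all controls. The value for Pcna was 0.12 ± 0.05 (adjusted p = 0.0519), past the threshold without control mouse 1 (0.12 to 0.16 in 10 fits), -0.13 ± 0.04 (adjusted p = 0.017) with length corrected, and 0.06 ± 0.04 (adjusted p = 0.207) with length and GC content corrected. Lig1, the ligase that joins the lagging strand, had 9.08, 12.3 and 13.4 CPM in control and 12.4, 14.8 and 17.3 CPM in IDA hearts. Every IDA heart was above the control mean for Lig1, and 7 were above all controls. It rose by 0.28 ± 0.08 (adjusted p = 0.00258), by 0.41 ± 0.08 (adjusted p = 0.000202) with the length correction and by 0.32 ± 0.08 (adjusted p = 0.00135) with GC content too. Its exons share 116 bp with the transcript 6330408A02Rik. Fen1, the flap nuclease, rose by 0.23 ± 0.08 (adjusted p = 0.0118) and had 0.15 ± 0.07 (adjusted p = 0.0831) after the length correction.

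**Figure D3:**
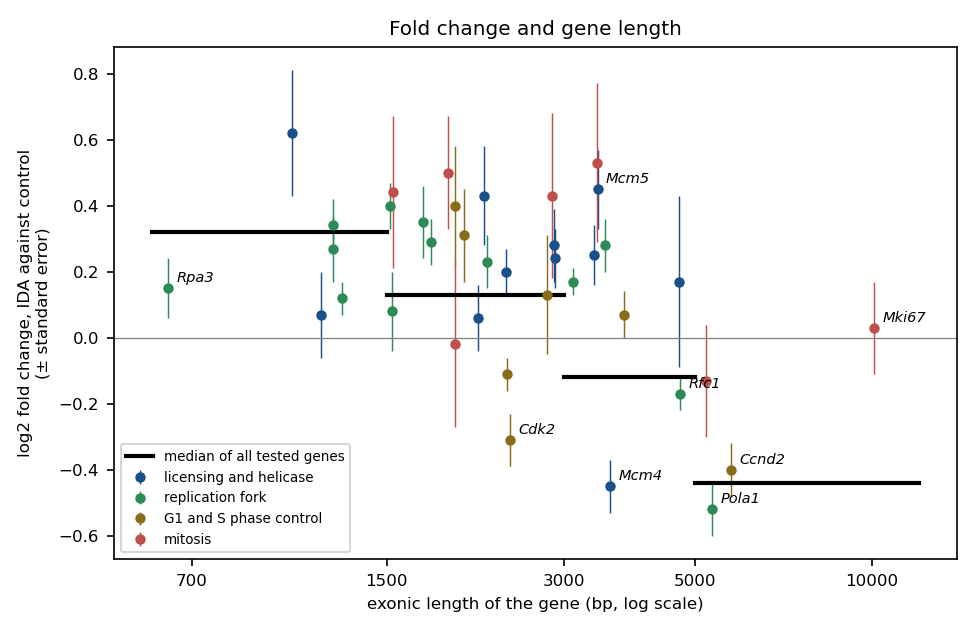
Log2 fold change of each member tested (points, coloured by role, ± standard error) against its exonic length on a log scale, with the median of all tested genes in 4 length ranges (black lines). The medians fall from 0.32 under 1500 bp to -0.44 at 5000 bp or more; Mcm4 and Mcm5 lie on opposite sides at nearly the same length, and Mki67, at 10075 bp, lies well above the line.

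Of the mitotic genes, Aurka rose, and the general markers of dividing cells, Mki67 and Top2a, did not pass the test. Mki67 (chr7:135689788-135716379, - strand, 14 merged exons), which marks cells in cycle, had 12.4, 17.5 and 21.3 CPM in control hearts and 11.4, 17.2 and 26 CPM in IDA hearts. The medians were close and the IDA hearts were more widely spread. Its log2 fold change was 0.03 ± 0.14 (adjusted p = 0.843), but 0.64 ± 0.15 (adjusted p = 0.000909) with the length correction and 0.73 ± 0.15 (adjusted p = 0.000369) with GC content too. With 10075 bp of exon, Mki67 was the longest member. The 612 tested genes of 8000 bp or more had a median log2 fold change of -0.63, and 24 of them, Mki67 included, were at or above its value. The corrected value of Mki67 is thus its distance from other long genes. Its read pairs per heart had medians of 133 in control and 114 in IDA hearts.

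Top2a, the topoisomerase of dividing cells with 5217 bp of exon, had 6.56, 9.33 and 12.6 CPM in control and 4.9, 8.49 and 13.7 CPM in IDA hearts, so that the IDA range enclosed the control range. For Top2a the log2 fold change was -0.13 ± 0.17 (adjusted p = 0.51) and 0.19 ± 0.17 (adjusted p = 0.355) without and with the length correction. Aurka, a spindle kinase, rose by 0.50 ± 0.17 (adjusted p = 0.0137), with 0.37 ± 0.17 (adjusted p = 0.0762) after correction, and all 10 IDA hearts were above the control mean. Birc5, which encodes survivin of the chromosomal passenger complex, had 0.53 ± 0.24 (adjusted p = 0.0538) and, after correction, 0.65 ± 0.24 (adjusted p = 0.0275). The corrected call for Birc5 was lost without IDA mouse 4 (0.35 to 0.45) or IDA mouse 1 (0.50 to 0.59), and a call without correction appeared without IDA mouse 7 (0.56 to 0.66). Ccnb2, a mitotic cyclin, had 0.44 ± 0.23 (adjusted p = 0.0884), Cdk1, its kinase, 0.43 ± 0.25 (adjusted p = 0.135), and Aurkb, the passenger complex kinase, -0.02 ± 0.25 (adjusted p = 0.939). With length corrected their values were 0.24 ± 0.22, 0.46 ± 0.25 and -0.15 ± 0.24, and again none passed. Ccnb1 had 1 to 20 and Bub1 3 to 19 read pairs per heart.

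A single IDA heart stood out in the mitotic genes, and not only in these. IDA mouse 4 had the highest level in its group for 6 of the 9 mitotic members and was among the highest 3 for all 9. The same heart was the highest of all 20 for several replication genes, among them Mcm2 (38 CPM), Mcm3 (29.2 CPM), Mcm5 (21.1 CPM) and Mcm6 (45 CPM). Cdt1 (8.23 CPM) and Lig1 (17.3 CPM) were also highest there, whereas Mcm4 (22.5 CPM) and Mcm7 (31.2 CPM) were not. The summed level of the 9 genes was 76.8 CPM in this heart, 59 CPM in IDA mouse 10 and 57.3 CPM in IDA mouse 5, against 28.6 to 42.7 CPM in the other 7 IDA hearts. Control hearts ranged from 29.5 to 54 CPM. The medians of this sum, 42.8 CPM in control and 42.1 CPM in IDA hearts, were close, and the groups overlapped over most of their range. This sum is weighted toward Mki67 and Top2a, with means of 17 and 9.51 CPM in control hearts, and carries no length correction. It therefore says little of the mitotic genes with lower counts. Ccna2, the S phase and mitotic cyclin, was also highest in IDA mouse 4, at 9.36 CPM with 5.72 CPM in the next heart, and its log2 fold change was 0.13 ± 0.18 (adjusted p = 0.545), or 0.15 ± 0.18 (adjusted p = 0.505) with length corrected. Exons of Ccna2 overlap those of Exosc9 by 378 bp.

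**Figure D4:**
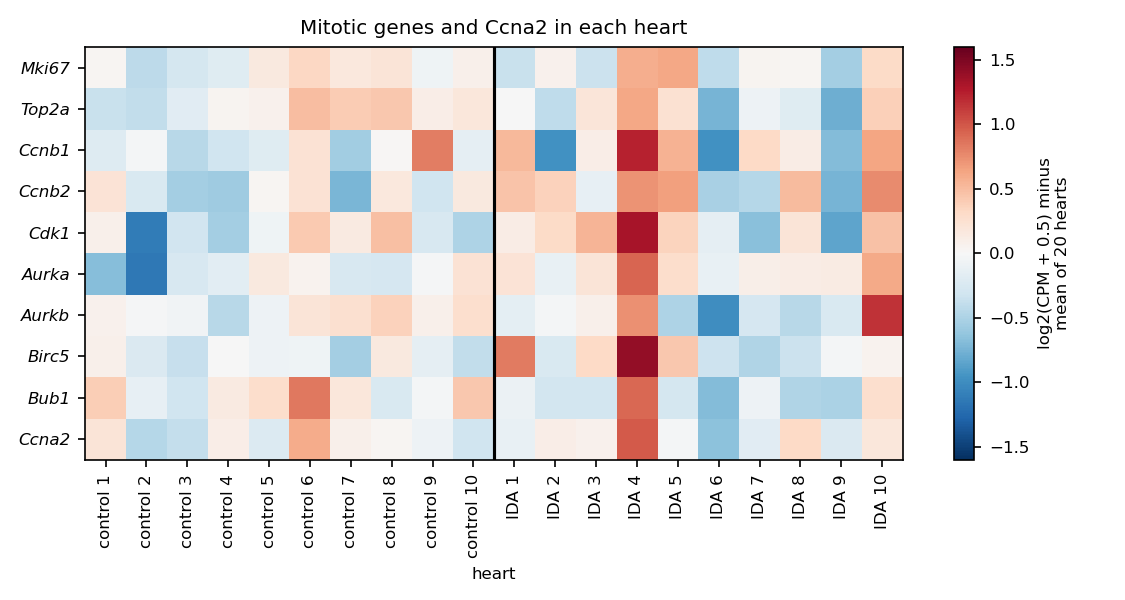
Level of the 9 mitotic members and Ccna2 in each of the 20 hearts, as log2(CPM + 0.5) minus the gene's mean over all hearts (red above, blue below the mean), with control hearts left of the line and IDA hearts right of it. IDA mouse 4, whose mitotic genes sum to 76.8 CPM, is red in every row, while other IDA hearts are mixed.

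Among the regulators of G1 and S phase, Cdk2 was called lower without correction, with length corrected and with length and GC content corrected. The D cyclins and the inhibitors depended on the fit or on the libraries compared. Cdk2, the kinase of S phase entry, had 22.4, 26.4 and 32.3 CPM in control hearts and 17.2, 20.7 and 26.1 CPM in IDA hearts. All 10 IDA hearts were below the control mean and 6 were below the lowest control. For Cdk2 the log2 fold change was -0.31 ± 0.08 (adjusted p = 0.00259), -0.35 ± 0.08 (adjusted p = 0.00101) with length corrected and -0.30 ± 0.08 (adjusted p = 0.00299) with length and GC content corrected. With library size as a covariate the value for Cdk2 was -0.23 ± 0.10 (adjusted p = 0.0588). Ccne1, the cyclin that pairs with this kinase, rose by 0.40 ± 0.18 (adjusted p = 0.0467), a call lost without control mouse 3 (0.24 to 0.39), control mouse 9 (0.24 to 0.40) or IDA mouse 4 (0.24 to 0.36). It had 0.28 ± 0.17 (adjusted p = 0.177) after the length correction.

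Ccnd2, a D cyclin and, per kilobase, the most abundant of the 6 cyclins among the members in control hearts (50.3 CPM per kb), had a median of 293 and a highest value of 328 CPM in control hearts and 153, 220 and 266 CPM (lowest, median and highest) in IDA hearts. The overlap came from control mouse 2, the lowest control, at 243.2 CPM, with the next control at 284 CPM. Ccnd2 fell by 0.40 ± 0.08 on the log2 scale (adjusted p = 0.000118), but the difference was -0.04 ± 0.06 (adjusted p = 0.575) with the correction for its 5771 bp of exon. Ccnd1, the other D cyclin among the members, had 138, 162 and 178 CPM in control and 141, 163 and 203 CPM in IDA hearts. Its medians were nearly equal, and 4 IDA hearts were above all controls. The log2 fold change of Ccnd1 was 0.07 ± 0.07 (adjusted p = 0.421), 0.22 ± 0.07 (adjusted p = 0.0113) with length corrected and 0.06 ± 0.07 (adjusted p = 0.49) with length and GC content corrected. Cdkn1b, which encodes p27, had 77.2, 87.7 and 93.6 CPM against 70.1, 80.1 and 93 CPM, with 3 IDA hearts below all controls. It had -0.11 ± 0.05 (adjusted p = 0.0615), past the threshold without IDA mouse 2 or IDA mouse 7 (-0.15 to -0.12 in both cases), -0.15 ± 0.05 (adjusted p = 0.0127) with length corrected, and 0.02 ± 0.04 (adjusted p = 0.749) with GC content too.

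Cdkn1a, which encodes p21, had 91.9, 147 and 183 CPM in control and 101, 179 and 227 CPM in IDA hearts, and its log2 fold change was 0.31 ± 0.14 (adjusted p = 0.0503). It passed without control mouse 2 or IDA mouse 1 (0.31 to 0.43 in both cases). The library numbers in the column names fell into a low range (5 control and 7 IDA mice) and a high range (5 control and 3 IDA mice), whose meaning is not given in the sources used here. In the low range Cdkn1a had 91.9 to 145 CPM in control and 151 to 227 CPM in IDA hearts, with no overlap and a log2 fold change of 0.73 ± 0.12 (adjusted p = 0.000156, edgeR within the range). In the high range it had 149 to 183 CPM in control and 101 to 167 CPM in IDA hearts, a log2 fold change of -0.34 ± 0.14 (adjusted p = 0.0698). The difference between the ranges was 1.06 ± 0.20 on the log2 scale (edgeR interaction of diet and range, adjusted p = 0.0193), and 1.08 ± 0.20 (adjusted p = 0.0133) with the length correction. Cdkn1a was the 1 member of 38 tested to pass this interaction, as did 28 of 13590 genes in all. The pooled value of Cdkn1a thus averaged opposite directions. The 22 members called in the pooled fit had the same direction in both ranges. The ranges are parts of the same mice that gave these calls, so this is not an independent check. Among the 38 members tested, 8 had opposite directions in the ranges, Cdkn1a included. The shares of all tested genes with the same direction, or with a call in each range, were not counted. Of the 22 members, 7 were called in each range on its own. Mcm4 was among these, with -0.42 ± 0.10 (adjusted p = 0.00242) in the low and -0.49 ± 0.14 (adjusted p = 0.0146) in the high range. Mcm5 had 0.33 ± 0.16 (adjusted p = 0.097) and 0.60 ± 0.17 (adjusted p = 0.0172). Cdk2 was called in the low range only, with -0.44 ± 0.11 (adjusted p = 0.00231), against -0.14 ± 0.13 (adjusted p = 0.385) in the high range.

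**Figure D5:**
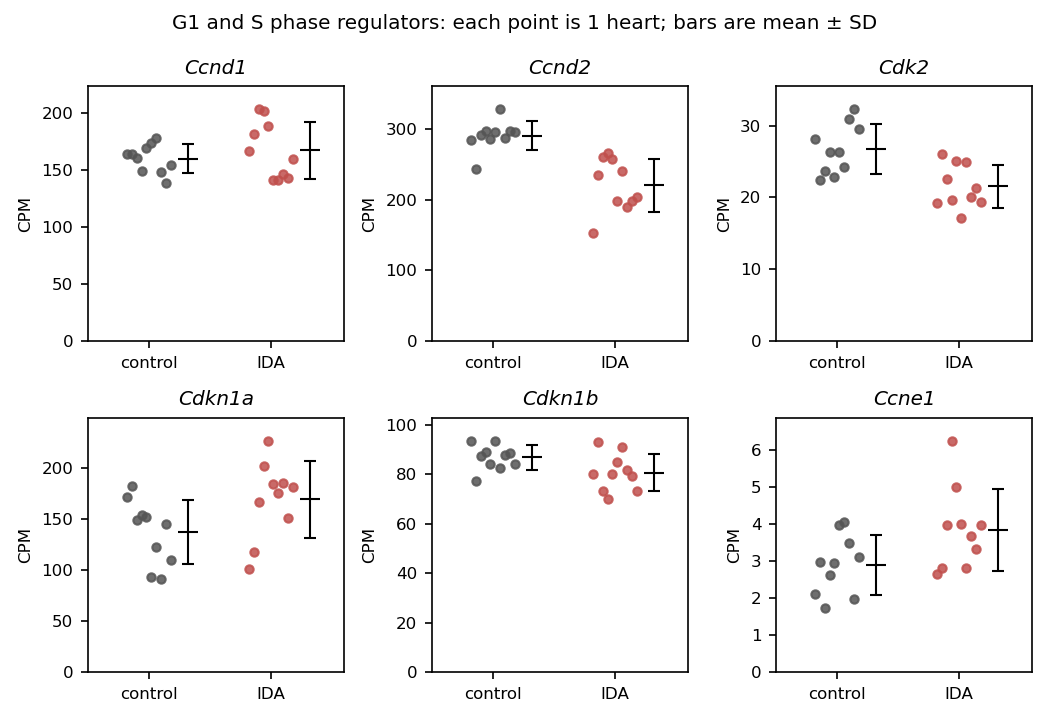
Level in CPM of 6 regulators of G1 and S phase in each heart (points, 10 control and 10 IDA), with the mean ± SD of each group beside them. Cdk2 and Ccnd2 lie lower in IDA hearts, while Cdkn1a is widely spread in both groups, with levels of 91.9 to 183 CPM (control) and 101 to 227 CPM (IDA).

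Other genes of the same processes were read from 4 lists of 117 genes, of which 108 were tested. Of these, 28 rose and 28 fell, or 25.9% each way, and the median log2 fold change was 0.02. Over all tested genes 35.0% were called higher and 32.5% lower, so both shares lay below the background. Other replication genes had 10 higher and 8 lower of 35 (28.6% and 22.9%). After the length correction 11 were higher and 7 lower (31.4% and 20%, against 31.5% and 23.5% of all genes), and 12 genes had the same call in both fits. Those with the largest changes were Cdc7, the kinase that fires origins, at -0.64 ± 0.19 (adjusted p = 0.00496), Rnaseh2c, a subunit of the nuclease that removes ribonucleotides from DNA, at 0.61 ± 0.09 (adjusted p = 4.41e-06), and Dna2, a nuclease and helicase, at -0.60 ± 0.17 (adjusted p = 0.00341). With length and GC content corrected none of these 3 passed (adjusted p = 0.0826, 0.478 and 0.0774).

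Among other mitotic genes 7 of 30 rose and 4 fell (23.3% and 13.3%, both below the shares of all genes). After the length correction 5 were higher and 4 lower (16.7% and 13.3%, against 31.5% and 23.5% of all genes). Ube2c, the ubiquitin-conjugating enzyme of the anaphase-promoting complex, had 1.59, 3.15 and 4.17 CPM in control and 2.52, 7.68 and 16.7 CPM in IDA hearts, with 9 IDA hearts above all controls and a log2 fold change of 1.48 ± 0.28 (adjusted p = 7.92e-05). Cdc20, an activator of that complex, rose by 0.63 ± 0.14 (adjusted p = 0.000562). Smc2, a condensin subunit, fell in all 10 IDA hearts below every control, from a median of 11.5 to one of 6.14 CPM (log2 fold change -0.82 ± 0.10, adjusted p = 5.21e-07). With length corrected the values were 1.19 ± 0.29, 0.47 ± 0.14 and -0.50 ± 0.09 for Ube2c, Cdc20 and Smc2. All 3 genes kept their calls with length and GC content corrected, at 1.11 ± 0.29, 0.37 ± 0.13 and -0.29 ± 0.09. With the erythroid marker mean as a covariate, Ube2c had 0.09 ± 0.33 (adjusted p = 0.826), Cdc20 0.81 ± 0.23 and Smc2 -0.96 ± 0.17.

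Other regulators of G1 and S phase had 6 higher and 12 lower of 28 (21.4% and 42.9%, against 35.0% and 32.5% of all genes). With length corrected 5 were higher and 10 lower (17.9% and 35.7%, against 31.5% and 23.5% of all genes). E2f2, an E2F transcription factor, had 1.04, 2.15 and 3.22 CPM in control hearts and 3.53, 10.9 and 33.9 CPM in IDA hearts, so that every IDA heart was above every control. Its log2 fold change was 2.53 ± 0.38 (adjusted p = 5.54e-06), and 0.21 ± 0.24 (adjusted p = 0.483) with the erythroid marker mean as a covariate. Rbl1, which encodes the pocket protein p107, was below every control in all 10 IDA hearts, with a median of 5.32 against 10.6 CPM (-0.94 ± 0.10, adjusted p = 3.04e-07). Cdk6, a kinase of the D cyclins, fell from a median of 6.67 to one of 3.27 CPM (-0.95 ± 0.17, adjusted p = 4.4e-05). With length corrected the values were 2.78 ± 0.38 for E2f2, -0.60 ± 0.09 for Rbl1 and -0.99 ± 0.17 for Cdk6, all called. With the erythroid covariate both Rbl1 and Cdk6 stayed lower, at -0.80 ± 0.18 for Rbl1 and -1.22 ± 0.30 for Cdk6.

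A list of Trp53, the gene of p53, and targets of p53, to which Cdkn1a is related, had 5 higher and 4 lower of 15. With length corrected 3 were higher and 3 lower, or 20% each, against 31.5% and 23.5% of all genes. No common direction was seen, and the first shares (33.3% and 26.7%) were below those of all genes (35.0% and 32.5%). Phlda3 rose by 0.71 ± 0.10 (adjusted p = 3.64e-06), with 9 IDA hearts above all controls. Trp53inp1 fell by 0.85 ± 0.11 on the log2 scale (adjusted p = 1.47e-06), with all 10 IDA hearts below the lowest control, and Eda2r fell by 0.83 ± 0.15 (adjusted p = 5.07e-05). With length corrected these values were 0.49 ± 0.09, -0.52 ± 0.09 and -0.47 ± 0.13, and each was called.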

How the data were processed

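RNA of whole hearts from 20 mice was sequenced as read pairs. The authors mapped the pairs to mm10 (STAR), discarded PCR duplicates and assigned pairs to the exons of each gene symbol regardless of strand (featureCounts 1.4.5-p1), so overlapping exons cannot be told apart. The deposited values were raw counts for 23420 genes, and a further column held exonic length. Groups came from the sample labels. The study excluded a mouse from each group for sample contamination, without naming it in the sources used here. All 20 were therefore kept, these excluded mice among them, and 100 fits each left out 1 control and 1 IDA mouse.

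Counts were analysed in R 4.3.3 with edgeR (version 4.0.16). Genes reaching 1 CPM in 10 or more mice were normalized by TMM and entered the quasi-likelihood test, diet being the only term, with Benjamini-Hochberg adjustment over 13590 genes. CPM values used TMM-scaled library sizes. The length correction entered as offsets a loess curve (span 0.5) of each mouse's log2 CPM deviation on log2 exonic length, and it removes technical and biological trends alike. GC content, known for 99.2% of tested genes, was added in an alternative. Other alternatives used DESeq2 (version 1.42.0), other filters, covariates and a replicate block. Fits by range of library numbers, and their interaction with diet, were added after seeing the data. The fits were tested on simulated data. At 1 CPM a gene has few read pairs in a heart, so counting error is large for low genes.

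All 40 members were named. Of each other list, the 3 genes with the largest absolute log2 fold change among those called alike in both fits were named. Members and lists were chosen with earlier results of these data known. Promoter sequences are from RefSeq (GRCm38.p6).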

Additional observations from a re-analysis of the deposited data

Results flagged for a closer look

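In 7 of 80 groups of 10 hearts (40 members in each diet), 1 heart lay apart from the rest, its gap to the next heart, as a share of the group's range, being above Dixon's critical value. Chance marks about 1 group in 20. In IDA mouse 4 the levels were 9.36 CPM for Ccna2 (next 5.72 CPM), 9.48 CPM for Cdk1 (next 5.34 CPM) and 2.37 CPM for Bub1 (next 1.33 CPM). In control mouse 9 Ccnb1 was highest at 1.74 CPM (next 0.99 CPM) and Lig1 was lowest at 9.08 CPM (next 11.3 CPM). Rfc2 was highest in control mouse 6 at 48.2 CPM (next 41.8 CPM), and Ccnd2 was lowest in control mouse 2 at 243.2 CPM (next 284 CPM).

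The diet effect on Cdkn1a differed between the ranges of library numbers by 1.06 ± 0.20 on the log2 scale (edgeR interaction, adjusted p = 0.0193). This comparison was chosen after the data were seen.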

How the results depend on the processing

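The count of members higher in IDA hearts without correction, 17, became 11 when both tools (edgeR and DESeq2) had to give a p below 0.01, 11 with length corrected, 10 with length and GC content corrected and 8 with the erythroid covariate. The 5 lower became 2 with length and GC content corrected. The 11 higher after length correction became 17 with the library size covariate and 5 with the erythroid covariate. Leaving out 1 mouse of each group gave 10 to 21 and 5 to 6 members without correction, and 7 to 15 and 3 to 6 with it. Counts over the 108 other genes together moved by less than 1.5 times, but with length and GC content corrected the other replication genes went from 10 higher and 8 lower to 6 and 2, the other G1 and S phase regulators from 6 higher to 2, and the other mitotic genes from 4 lower to 2. With the replicate block 15 members were higher and 5 lower (12 and 4 after length correction). Same-numbered mice correlated at -0.28 to 0.26, with 3 of 10 over 0.1 and 3 of 10 controls closest to their own number, so the numbers are not treated as pairs. Log2 fold changes reversed with length corrected in Pcna (-0.13), Gins1 (-0.20), Cdc45 (-0.03), Rfc1 (0.09), Rpa3 (-0.21), Prim1 (-0.12) and Top2a (0.19), with length and GC content corrected in Gins1 (-0.11), Rfc1 (0.21), Pola1 (0.02), Top2a (0.36) and Cdkn1b (0.02), with the erythroid covariate in Cdc45 (-0.01), Mki67 (-0.10), Top2a (0.01) and Aurkb (0.35), with library size in Top2a (0.23) and Aurkb (0.05), and with library numbers in Mki67 (-0.03). Without 1 mouse of each group the values were -0.04 to 0.16 for Gins1, -0.03 to 0.11 for Cdc45, -0.01 to 0.39 for Cdc6, -0.02 to 0.18 for Prim1, -0.09 to 0.13 for Mki67, -0.08 to 0.29 for Ccna2 and -0.31 to 0.11 for Aurkb. The cause of these changes was not tested.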
